A study of Mus musculus with 2 samples.

Results

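The 132 protein-coding olfactory receptor genes of mouse chromosome 9 were examined for Gata3 binding in TH2 cells. The rule for membership uses the annotation and no measured value: the members are the protein-coding genes of GENCODE M21 on chromosome 9 whose symbol begins with Olfr, 132 of the 21938 protein-coding genes of chromosomes 1 to 19, X and Y. Gata3 ChIP-seq was available as 2 libraries, replicates 1 and 2 of the same condition, splenic TH2 cells expanded in culture and immunoprecipitated with the antibody D13C9. The labels give no genotype, strain or age, although the names under which both libraries were deposited carry the term CD4cre, which the labels do not explain. Further, 1 protocol field speaks of ILC2 in place of TH2 cells, and nothing in the labels says whether the replicates came from separate animals or cultures. With 1 condition, and no input or control antibody library used here, each value below is read against the same library.

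Olfactory receptors are odorant-sensing G protein-coupled receptors of the nasal epithelium, and each olfactory neuron expresses a single allele out of this very large gene family. In other tissues the genes lie silent in AT-rich clusters packed as heterochromatin, which makes them a reference for closed chromatin. Gata3 is the transcription factor that directs TH2 differentiation, and it recognises the sequence WGATAR, that is, GATA preceded by A or T and followed by A or G, on either strand. Since this sequence occurs by chance in any genome, silent receptor genes carry many copies, and the question asked here was how many reads lay at these genes and how often a GATA motif there lacked a peak.

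The control genes of the cell type were read high. All 10 of 10 genes on a list of TH2 markers, including Gata3 itself and the cytokine genes Il4, Il5 and Il13, were called above the library mean in both libraries, as were 60.6% of all protein-coding genes, and 8 of them held a peak called in both libraries, as did 35.0% of all protein-coding genes (both rules are given with the members' values). Il13 was read at 13.6 and 13.4 times the mean of libraries 1 and 2. Ccr8, a chemokine receptor gene of TH2 cells on the same chromosome as the members, was read at 10.3 and 10.9 times the mean. The libraries hold DNA, so marker RNA could not be examined.

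The members form 2 clusters on GRCm38. The first holds 37 genes over 1.58 Mb, chr9:18751507-20336094, and the second holds 95 genes over 2.48 Mb, chr9:37708964-40190134. Annotated gene length ranged from 930 to 26047 bp with a median of 5481 bp. No protein-coding gene other than a member lay within 2 kb of a member. Some members, such as Olfr954 and Olfr955, lay within 2 kb of each other. Each gene body was taken with 2 kb on either side and divided into 200-bp windows, 6739 in all.

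The motif sites on which the following results turn are printed here, each as 30 bases read so that the GATA motif, in capitals, runs 5′ to 3′. The first 5 are the sites with the most reads by the lower RPM (reads scaled to a library of 1000000) of both libraries, and the last 5 are sites without a read in either library that had the most further motifs within 100 bp.
Olfr920 exon site, chr9:38757235-38757264 plus strand: aaggaaagtagaTGATAAaatctcccatac
Olfr986 intron site, chr9:40186412-40186441 plus strand: accactatcgatAGATAGatagatagatag
Olfr986 intron neighbour, chr9:40186416-40186445 plus strand: ctatcgatagatAGATAGatagatagatag
Olfr984 exon site, chr9:40097354-40097383 plus strand: tgttggtggcacTGATAGgactcaatcgtt
Olfr906 upstream site, chr9:38486729-38486758 minus strand: atccttcagaggAGATAAggcatggacaaa
Olfr828 first intron site, chr9:18818536-18818565 plus strand: aattatctgttaAGATAAgtgaaaatcttt
Olfr828 second intron site, chr9:18818518-18818547 minus strand: taacagataattTGATAGtaacattccaaa
Olfr828 last intron site, chr9:18818526-18818555 minus strand: acttatcttaacAGATAAtttgatagtaac
Olfr970 intron site, chr9:39817322-39817351 plus strand: agaactgggttcTGATAAtgctaagtagcc
Olfr843 exon site, chr9:19247823-19247852 plus strand: taaaagccactcAGATAAtaaaaacatgat
Sites with many reads and sites with none share the pattern WGATAR. The 2 sites of Olfr986 belong to the same tandem repeat of the motif, and the 3 sites of Olfr828 overlap, so they are not separate observations. The exon sites lie in exon sequence outside the annotated coding sequence.

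The olfactory receptor genes of chromosome 9 were read below the library mean in both libraries. Library 1 had 2.17 reads per window over the members and 3.06 over all windows of the genome, a level of 0.710 of the library mean (95% exact Poisson interval 0.699 to 0.722). Library 2 had 1.15 against 1.89 reads per window, a level of 0.611 (0.598 to 0.625). The mean of the 2 levels was 0.661 ± 0.070 (SD of 2 libraries). The other protein-coding genes of chromosome 9 were read at 1.39 and 1.36 times the library mean and stood above the members in both libraries without overlap of the intervals. These intervals, and those that follow, cover counting error only.

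As groups, other sensory receptor genes were read below the library mean as well. The 1003 Olfr genes on other chromosomes stood at 0.779 (0.775 to 0.783) and 0.783 (0.778 to 0.789) of the library mean, above the chromosome 9 members in both libraries and without overlap of the intervals. The 331 vomeronasal receptor genes, which encode the pheromone receptors of the vomeronasal organ, stood at 0.345 and 0.313, below the members. In the vomeronasal genes 50.9% of windows were at least 90% unique, meaning that at least 90% of the 50-base stretches whose reads count there have no exact copy in the assembly, against 83.5% in the members. On such windows alone the reference was their own mean over the genome, 3.82 and 2.35 reads per window in place of 3.06 and 1.89. The vomeronasal genes then stood at 0.492 and 0.446 and the members at 0.650 and 0.561. The other protein-coding genes of chromosome 9 stood at 1.21 and 1.18 on this scale. Among the 12 chromosomes with at least 20 Olfr genes, chromosome 9 had the lowest mean level on these windows and the second lowest once windows of the same GC content were the reference. It was the lowest in the mean of both libraries only. In library 1 chromosomes 2 (0.609) and 17 (0.641) were lower, and in library 2 chromosome 19 (0.534) was.

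**Figure D1:**
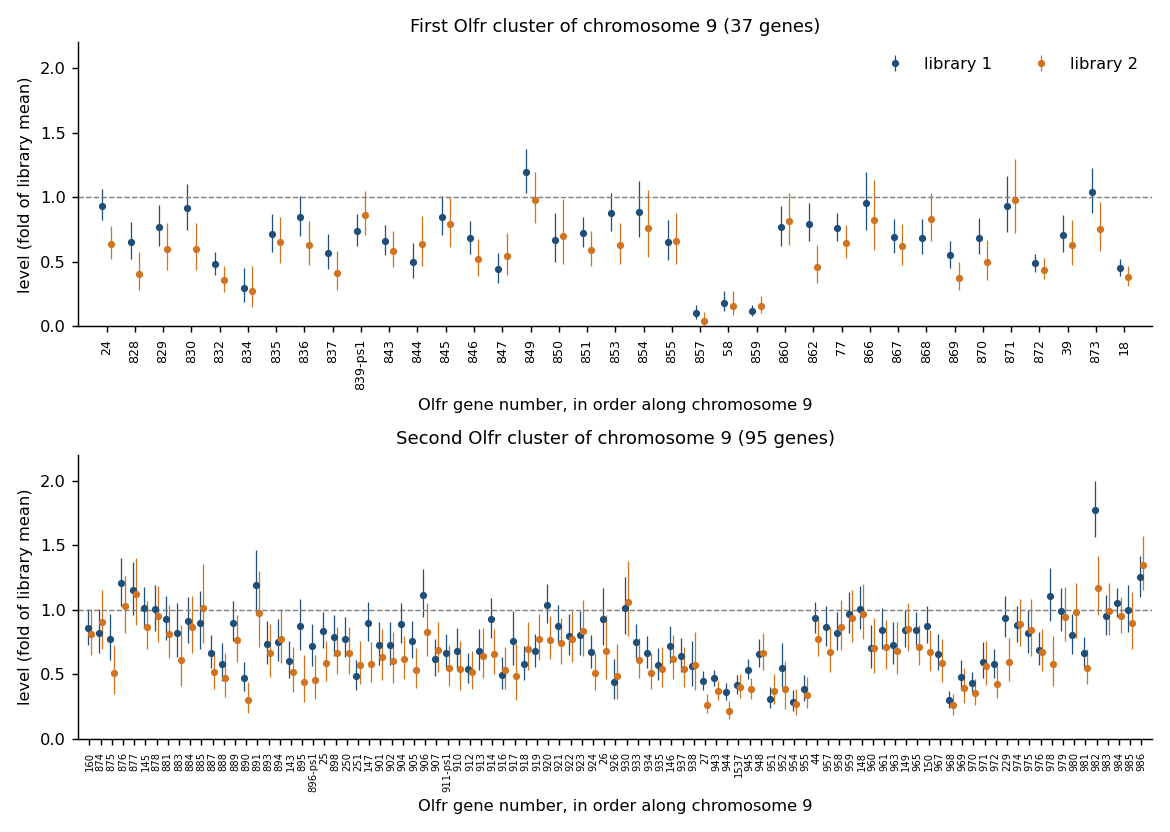
Level of each olfactory receptor gene of chromosome 9 (fold of the library mean, vertical axis) in the order of the genes along each of the 2 clusters (horizontal axis), with library 1 in blue and library 2 in orange, bars showing 95% exact Poisson intervals and the dashed line the library mean. Most genes sit below the line in both libraries, a group of 3 in the first cluster sits nearest to 0, and Olfr982 and Olfr986 have the highest mean levels.

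Gene by gene, 116 of the 132 members were below the library mean in both libraries, 5 were above it in both and 11 were on different sides. The same was not counted for all protein-coding genes, whose median levels were 1.35 and 1.34. Each gene's reads were tested against the library mean (two-sided exact Poisson test, Benjamini-Hochberg adjustment over all protein-coding genes, q under 0.01 in both libraries in the same direction). By this rule 65 members (49.2%) were lower and 1 was higher, where 16.7% of all protein-coding genes were lower and 60.6% were higher. A further 51 members were below the mean in both libraries without passing. The Poisson test counts only sampling error, and its p-values are too small where reads vary more than that. On windows at least 90% unique, the variance of the members' counts was 1.71 and 1.35 times their mean. With the gene body alone, without the flanks, 37 members were lower, beside 15.5% of all genes.

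The levels of the 132 members were alike in both libraries (Pearson r = 0.842, Spearman rho = 0.805, a description across genes that share libraries, overlapping flanks and base composition). The median member stood at 0.737 in library 1 and 0.632 in library 2, and 101 members were lower in library 2 than in library 1. The first cluster stood at 0.647 and 0.551 of the library mean, and the second at 0.737 and 0.637. On windows at least 90% unique the clusters stood at 0.627 and 0.533, and at 0.660 and 0.573. Outside the gene windows, 3405 windows of the first cluster, a part of that sequence, were read at 0.519 and 0.436. In the second cluster 5100 such windows, again a part, were read at 0.624 and 0.531. These levels were below those of the gene windows in each cluster and library, by either of the 2 scales above.

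Among members with at least 80% unique sequence, 124 of the 132, Olfr58 was the lowest. It held 26 reads in library 1 and 14 in library 2 over gene body and flanks, levels of 0.185 and 0.161, with q = 8.7e-32 and 2.4e-21. Olfr968 held 84 and 45 reads, levels of 0.298 and 0.259. The other 6 of the 8 lowest were Olfr954, Olfr944, Olfr951, Olfr27, Olfr955 and Olfr890, with mean levels of 0.281 to 0.388. Each of these 8 passed the test as lower. Within the second cluster, 6 of the 8 lowest lie between Olfr27 and Olfr968, a stretch of 0.655 Mb with 23 members that was singled out after the levels were seen.

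The highest member by the mean of both libraries was Olfr982, with 260 reads in library 1 and 106 in library 2. Its levels were 1.77 and 1.17, so the gene was high in library 1 (q = 9.4e-17) and was not distinguished from the mean in library 2 (q = 0.13). Olfr986 held 253 and 168 reads, levels of 1.253 and 1.350, and was the 1 member called higher (q = 0.00073 and 0.00032). The other 6 of the 8 highest, Olfr877, Olfr876, Olfr849, Olfr891, Olfr930 and Olfr984, had mean levels of 1.001 to 1.14 and passed the test in neither direction. On windows at least 90% unique, with their higher mean as reference, all 6 had mean levels below 1, from 0.868 to 0.9315. Olfr982 and Olfr986 then stood at 1.22 and 1.13. Olfr982, Olfr984 and Olfr986 lie together at the end of the second cluster, between Olfr978 and Olfr986, a stretch also singled out after the levels were seen. Its 9 members had a median level of 0.997 and 0.953. Of the members of the family, Olfr986 had the highest GC content, 41.2%. Against windows of the same GC content it stood at 1.09 and 1.18. By that reference no member was called higher, beside 29.4% of all genes.

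The members differed in how far their sequence can be told from its copies elsewhere in the genome. The deposited reads exclude those without a unique position. By exact copies of 50 bases, 93.2% of the members' sequence was unique. A stricter share, the 50-base stretches whose first 24 and last 24 bases each occur once in the assembly, was 74.0% over all members and ranged from 24.3% to 97.6%, with 70.9% in 9792 evenly spaced 1-kb segments of the genome. The 50-base stretches that fail only the stricter rule held 233 of the 14641 reads that began at uniquely placed positions of the members in library 1 and 114 of 7753 in library 2. Across the 132 members the stricter share correlated with the level (Pearson r = 0.740, Spearman rho = 0.70, as a description). Counted only at these stricter positions, and against the same positions of the segments, the members stood at 0.683 and 0.587. By this measure 127 of the 132 were below 1 in both libraries, and no other genes were counted. The level at these positions still correlated with the stricter share (r = 0.435, rho = 0.359). Olfr986 was then the 1 member above 1 in both.

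A run of 3 neighbours in the first cluster was nearly empty. Olfr857 held 15 and 4 reads, levels of 0.102 and 0.0442, and Olfr859 held 30 and 25 reads, levels of 0.118 and 0.160, with Olfr58 between them. They were singled out after their levels were seen, and their stricter unique shares were 24.3% for Olfr857, 26.97% for Olfr859 and 35.0% for Olfr58. At stricter positions Olfr857 stood at 0.246 and 0.133, Olfr859 at 0.315 and 0.374 and Olfr58 at 0.358 and 0.339. They remained the 3 lowest members on that scale, and the part that copies with more mismatches had in these values was not tested. By exact copies the least unique members were Olfr18 (65.7%), Olfr907 (70.2%) and Olfr834 (70.3%). They held 192 and 101, 76 and 52, and 23 and 13 reads, and all were called lower. At stricter positions Olfr18 stood at 0.766 and 0.611, Olfr907 at 0.690 and 0.751 and Olfr834 at 0.468 and 0.396.

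Base composition set the members apart from other genes. Their GC content was 36.2%, against 43.8% for the other protein-coding genes of chromosome 9, and in both libraries the genome itself was read less where GC content was low. Against windows of the same GC content, at least 90% unique, the members stood at 0.747 and 0.669, below the genome's windows in both libraries. The other protein-coding genes of chromosome 9 stood at 1.16 and 1.12 on this scale. By the same reference 50 members were called lower, beside 12% of all genes. At 30 to 32% GC the members stood at 0.865 and 0.731 of the genome's windows, at 42 to 44% at 0.711 and 0.665, and at 50 to 52% at 0.449 and 0.451, where 91 windows remained. These windows too were chosen by exact copies only, and the part that copies with mismatches had in this fall was not tested.

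**Figure D2:**
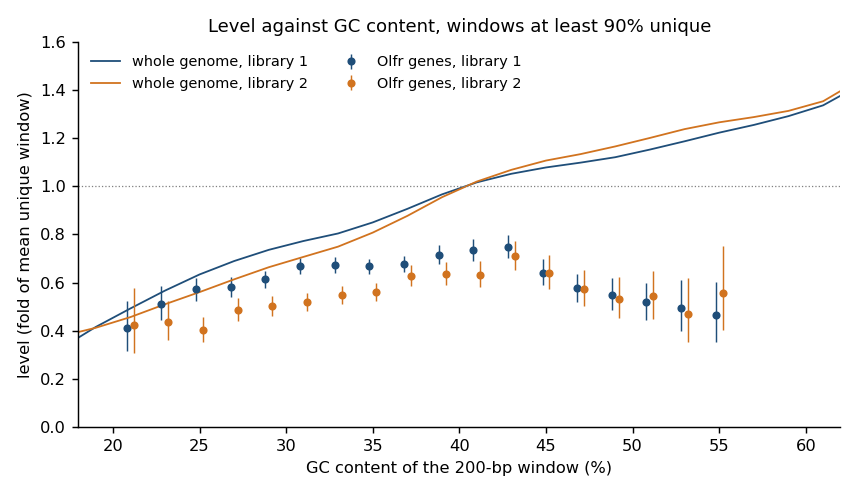
Level of 200-bp windows (fold of the mean window at least 90% unique, vertical axis) against their GC content (percent, horizontal axis), with lines for all such windows of the genome and points with 95% exact Poisson intervals for the olfactory receptor genes of chromosome 9, blue for library 1 and orange for library 2. Over the range plotted the genome's lines rise with GC content, while the members are highest at 42 to 44% GC, at 0.748 and 0.711, and lower in each bin above it.

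Within the genes, the coding exon, which in this family is usually uninterrupted, was the most GC-rich part. Coding windows had 41.4% GC and stood at 0.630 (0.591 to 0.670) and 0.595 (0.548 to 0.645). Introns had 33.9% GC and stood at 0.597 (0.578 to 0.616) and 0.498 (0.477 to 0.521). Against windows of the same GC content the coding exons were read at 0.626 and 0.590 and the non-coding exons at 0.837 and 0.736. The windows of each part were chosen by exact copies only, and no part was counted at the stricter positions. The share that copies with mismatches had in the differences between parts was therefore not tested. In the other genes of chromosome 9 the coding exons stood at 1.13 and 1.10 of windows of the same GC content.

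Around the start sites the members' reads stayed at or below the library mean. In the 100 bp before the annotated start the 132 members were read at 0.867 (0.743 to 1.005) in library 1 and 0.844 (0.690 to 1.02) in library 2, against 0.683 (0.574 to 0.807) and 0.563 (0.439 to 0.711) in the 100 bp farthest upstream, 2 kb before the start. The intervals of these bins overlapped in both libraries. In library 1 the bins centred 150 bp before the start, at 0.980 (0.849 to 1.127), and 350 bp after it, at 0.995 (0.862 to 1.143), did not overlap with the farthest bin, while in library 2 no bin stood above it without overlap. At the starts of the 1078 other genes the same windows stood at 2.31 and 2.53, and upstream at 1.496 and 1.44. A WGATAR sequence occurred on either strand in 80 of 132 member promoters (60.6%), taken as 250 bases before to 50 after the start, and in 27.6% of all promoters. The share with the motif was higher in the members and the reads at the start were fewer.

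**Figure D3:**
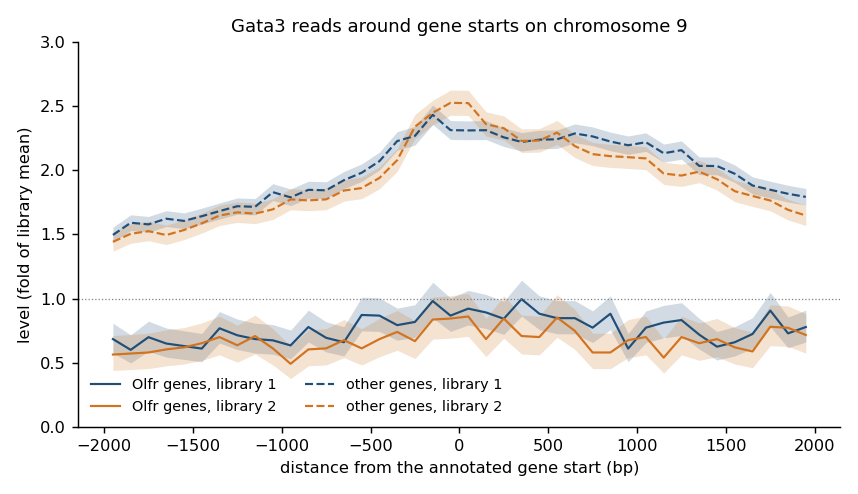
Reads around annotated gene starts on chromosome 9 in 100-bp bins (level as fold of the library mean, vertical axis) against distance from the start (bp, horizontal axis), solid for the 132 olfactory receptor genes and dashed for the 1078 other protein-coding genes, blue for library 1 and orange for library 2, bands showing 95% exact Poisson intervals. The other genes rise to above 2.3 at the start, and the olfactory receptor genes stay at or below the library mean.

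Window by window the members' reads were spread more widely than a Poisson distribution, and their fullest windows held far fewer reads than those of other genes. On windows at least 90% unique, 14.95% of 5625 member windows in library 1 held no read, where a Poisson distribution of the same mean gives 8.34%. In library 2 the share was 32.5%, where Poisson gives 26.7%. These windows were chosen by exact copies only, and the part that copies with mismatches had in the windows without a read was not tested. The variance was 1.71 and 1.35 times the mean in the members, and 7.27 and 4.35 times in the other genes of chromosome 9. The fullest of the adjoining member windows held 24 reads in library 1 and 10 in library 2, while the other genes of chromosome 9 reached 195 and 146. Those genes have many more windows, and a maximum grows with their number. Windows with 30 or more reads made up 0% of the member windows in both libraries, against 0.728% and 0.223% in the other genes. Reads per window in the 2 libraries correlated across the 5625 windows with Pearson r = 0.319 and Spearman rho = 0.278, and across 256405 windows of the other genes with r = 0.785 and rho = 0.349, as a description over windows that share copies and base composition.

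**Figure D4:**
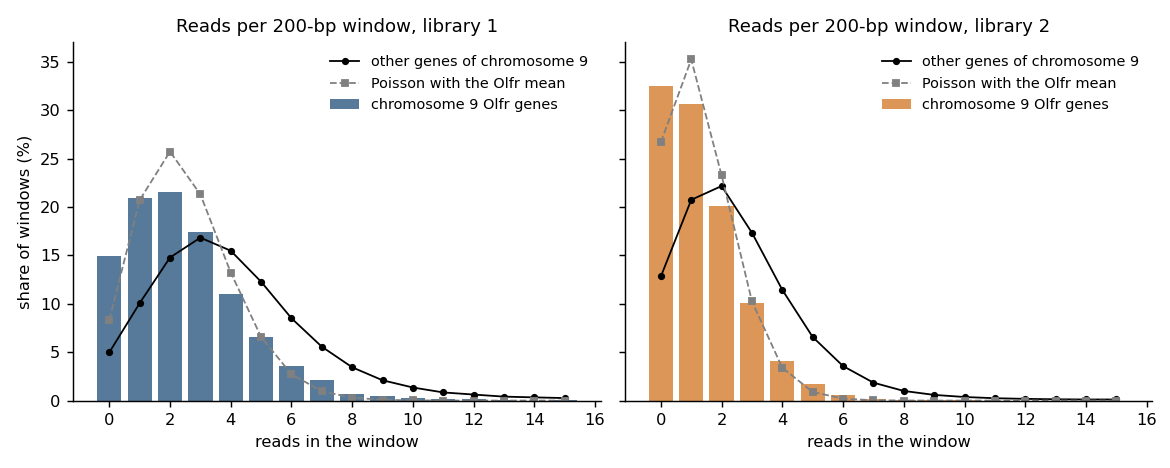
Share of 200-bp windows (percent, vertical axis) by number of reads (horizontal axis) in library 1 (left) and library 2 (right), with bars for the olfactory receptor genes of chromosome 9, black points for the other protein-coding genes of chromosome 9 and grey squares for a Poisson distribution with the mean of the bars. The bars hold 14.95% and 32.5% of windows without a read and end far below the counts that the other genes reach.

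A single member carried a peak called in both libraries. A peak was a group of 200-bp windows, here overlapping and placed every 50 bp, with more reads than the highest of the library mean and the 5-kb and 10-kb means in the neighbourhood (exact Poisson test for an excess, at a Benjamini-Hochberg q of 0.01), and it was shared if peaks of both libraries overlapped. Of the 132 members 1 (0.758%) had a shared peak, while 35.0% of all protein-coding genes had one. In simulated data most planted peaks were found in both libraries only at the largest excess simulated. A gene or motif without a shared peak can therefore still hold weaker binding. Members are shorter than other genes, so the number per length was also compared. It was not adjusted for unique sequence or GC content. Where the 5-kb and 10-kb means lay below the library mean, a call needed a larger excess over the neighbourhood. The members held 0.742 shared peaks per Mb of gene window, the Olfr genes on other chromosomes 3.82, the other protein-coding genes of chromosome 9 15.2 and all protein-coding genes 12.9. Library 1 alone gave a peak in 17 members, beside 60.7% of all protein-coding genes, and library 2 alone in 2, Olfr920 and Olfr930, beside 37.9%, so that 16 of the library 1 calls had no counterpart in the shallower library. At a q of 1e-10 no member had a shared peak, while 11.4% of all genes had one.

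The shared peak lies in Olfr920, an odorant receptor gene of the second cluster on the plus strand, chr9:38752299-38760117. The peak spans chr9:38756951-38757500, and its summit at 38757150, in exon sequence outside the annotated coding sequence, lies 4852 bp after the gene start. The summit window held 26 reads over 4.44 in the neighbourhood in library 1, a ratio of 5.86 (q = 9.8e-10). In library 2 it held 11 over 1.83, a ratio of 6.01 (q = 0.0013), and there the reference was the library mean over the whole chromosome lengths, the highest of the 3. It ranked at the 6.33 percentile of all 23806 shared peaks by the lower of its 2 heights. Its heights were 0.642 and 0.441 RPM, where the median shared peak had 0.988 and 0.881. The sequence from 60 bases before the summit to 120 bases after it is shown, since it holds the peak's 1 GATA motif, in capitals.
Olfr920 peak, chr9:38757091-38757270 plus strand: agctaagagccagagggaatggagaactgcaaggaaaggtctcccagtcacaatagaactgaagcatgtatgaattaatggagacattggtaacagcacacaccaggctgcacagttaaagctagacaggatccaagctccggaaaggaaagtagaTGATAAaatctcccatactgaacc
The motif is centred 99 bp after the summit, and no AP-1 sequence (TGANTCA with C or G at N, on either strand) occurs in the peak. Over the whole gene Olfr920 held 191 and 87 reads, levels of 1.04 and 0.769, and passed the test in neither direction.

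Further shared peaks lay between the genes of the clusters. The spans of both clusters, with 2 kb on either side, held 9 shared peaks, of which 8 were outside every gene window, at 7268 to 53721 bp from the nearest member. The gene windows make up 1347.8 kb of the spans, less than the sequence between them, and the numbers per length were not compared. The tallest of them by the lower of both libraries, 42521 bp from Olfr855, held 36 and 22 reads and stood at the 56.7 percentile. Another, 10536 bp from Olfr851, held 43 and 13 reads. A WGATAR sequence occurred within 100 bp of the summit in 7 of these 8 peaks, the exception being the tallest. For comparison, 2697 of the 5625 member windows at least 90% unique held one.

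GATA motifs were almost all without a shared peak, 99.97% of them at the members and 98.64% in all protein-coding genes. Every member held WGATAR sequences within its window, from 12 to 99 with a median of 31. Counted once, 3873 occurrences lay where at least 90% of a 200-bp window was unique by exact copies. That is 2.87 per kb of gene window, beside 1.98 per kb in the other genes of chromosome 9. Sites with copies that differ by mismatches were kept, and no motif count was repeated at the stricter positions. Of these 3873 sites 1 lay in a shared peak, so 3872 (99.97%, 95% exact binomial interval 99.86 to 99.999) did not. This interval takes sites as independent and is too narrow, since 1987 of the 3873 had another within 100 bp. In all protein-coding genes 1.36% of 2218762 sites lay in a shared peak, and in the other genes of chromosome 9 1975 of 114896 sites (1.72%). In the Olfr genes on other chromosomes the share was 100 of 25992 (0.385%). Library 1 alone placed 36 of the members' sites in a peak, beside 67496 of the 2218762 sites of all protein-coding genes, and library 2 alone 4, beside 25824.

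Most motif sites carried scattered reads. The median site held 2 reads in library 1 and 1 read in library 2 within 100 bp, and 285 sites (7.36%) held none in either library, against 2.06% in the other genes of chromosome 9. The sites were chosen by exact copies only. The part that copies with mismatches had in the sites without a read, the printed ones included, was not tested. A site without a read allows up to 3 reads, which is 0.0741 RPM in library 1 and 0.120 RPM in library 2, where the mean window of the genome had 0.0755 RPM. This limit lies just below that mean in library 1 and above it in library 2. At the other end, the Olfr920 site printed above held 19 and 9 reads, 0.469 and 0.361 RPM. The Olfr986 repeat held 12 and 10 reads, the Olfr984 site 10 and 11 reads and the Olfr906 site 14 and 6 reads, the last 341 bp before the gene. None of the 3873 sites reached, in the lower of both libraries, 0.420 RPM, the height that 95% of shared peaks exceed. The measures differ, since a site's reads lie within 100 bp of its motif while a peak's height is its fullest window in each library. In library 2 the Olfr920 peak had 0.441 RPM by its height and 0.361 RPM at its motif. The sites of other genes were not set against this height.

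Summed over all sites, reads near the motif exceeded those at its flanks by a little. Within 100 bp of the 3873 motifs the density was 1.18 times (1.15 to 1.204) that at 500 to 1000 bp on either side in library 1 and 1.13 times (1.09 to 1.16) in library 2. The same 6 letters written backwards, which keeps the base composition and can overlap with a WGATAR site, gave 1.10 (1.08 to 1.13) and 1.12 (1.08 to 1.15). The intervals of motif and reversed letters were apart in library 1 and overlapped in library 2. In the other genes of chromosome 9 the motif gave 1.23 and 1.15 and the reversed letters 1.07 and 1.05. Neighbouring sites share reads, so these intervals are too narrow as well. Per position that is unique over 50 bases the members' ratios were 1.14 and 1.09, since the flanks were less unique than the motifs' own windows.

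**Figure D5:**
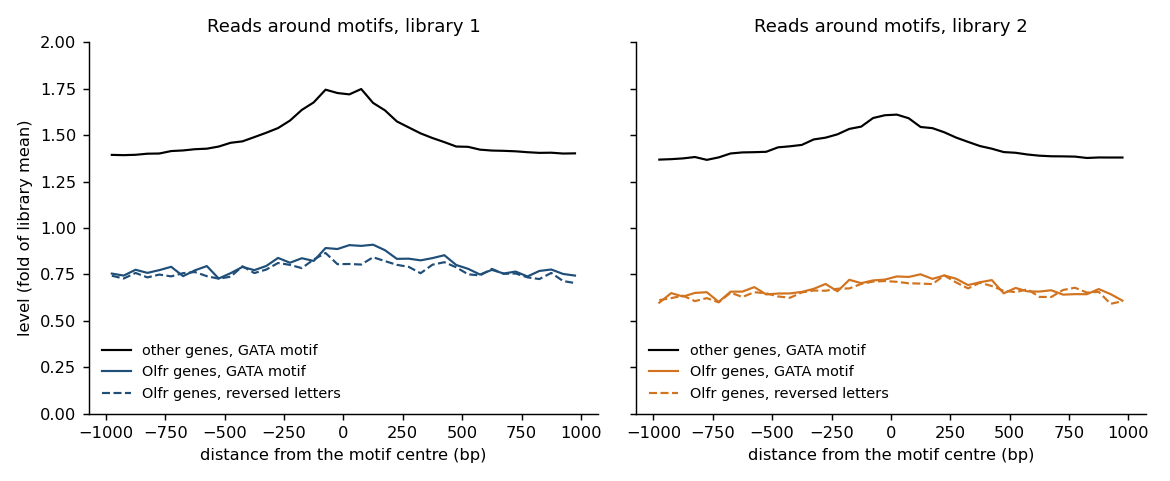
Reads around motif centres in 50-bp bins (level as fold of the library mean, vertical axis) against distance (bp, horizontal axis) in library 1 (left) and library 2 (right), coloured solid for WGATAR at the olfactory receptor genes of chromosome 9, dashed for the reversed letters there and black for WGATAR at the other protein-coding genes of chromosome 9. The black lines rise above 1.6 at the centre, while the members' lines stay below 1 at every distance, with a small rise for motif and reversed letters alike in library 2.

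Member windows with a motif were read more than those without in library 1, and alike in library 2 before base composition was taken into account. Windows with WGATAR stood at 0.687 (0.671 to 0.703) in library 1 and 0.561 (0.542 to 0.580) in library 2, and windows without it at 0.617 (0.602 to 0.631) and 0.562 (0.544 to 0.580). The intervals of the 2 kinds were apart in library 1 and overlapped in library 2. Windows with the motif had 34.2% GC and windows without it 36.4%. Against windows of the same GC content, those with the motif stood at 0.812 and 0.694 and those without it at 0.690 and 0.648, so on this scale the windows with the motif were higher in both libraries. In the other genes of chromosome 9 windows with the motif stood at 1.33 and 1.24 and windows without it at 1.15 and 1.15.

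Most genes of the olfactory pathway outside the receptor family were read above the library mean. The list of 25 genes holds signalling and transcription factor genes of olfactory neurons, and also Kdm1a, Lbr, Cbx5, Ldb1, Eif2ak3, Ddit3 and Atf5, genes of chromatin, transcription and the stress response that many cell types use. Of the 25 genes, 23 were called higher and 0 lower by the same exact Poisson test, beside 60.6% and 16.7% of all genes, with a median level of 1.53 and 1.49, and 11 held a shared peak, beside 35.0% of all genes. The 7 genes used by many cell types, grouped after their values were seen, gave 5 of these 11. Gnal and Adcy3, which encode the G protein subunit and the adenylyl cyclase of odorant signalling, stood at 1.65 and 1.73 and at 1.36 and 1.31. Omp, the olfactory marker protein gene, stood at 1.39 in both libraries. Lhx2, a transcription factor gene required for receptor expression, stood at 1.79 and 1.67 and had no shared peak, and Ebf1, which encodes a further such factor and also acts in B cells, had 14 over a long gene body. Cnga2, the X-linked cyclic nucleotide-gated channel gene, passed in neither direction, with 0.636 in library 1 and 1.13 in library 2.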

How the data were processed

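Gata3 ChIPmentation reads of 2 TH2 libraries were used as deposited: 40526613 and 24970952 single 50-bp reads, with 40504814 and 24959052 of them on the autosomes, X and Y. Per the paper and the labels, the authors aligned them to GRCm38 with Bowtie2 2.3.5.1 and kept uniquely mapped reads; the submitters' processing notes also name MACS2 2.1.2. The score column of the deposited files is the mapping quality and was used only for a filter of 30 tried as an alternative.

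Reads were moved 100 bp downstream along their strand and counted in 200-bp windows without unknown bases. Level is the mean per window over the library mean. Genes came from GENCODE M21, sequences from GRCm38.p6 (RefSeq). Named genes were the 8 highest and 8 lowest members at least 80% unique, any with a shared peak, the 3 least unique, and 5 motif sites of each kind. Of 2 overlapping Ddit3 entries the longer was used. The annotation decides which genes are members, but this gene family and chromosome, the lists and the tests were chosen with earlier results of these data known. Intervals are 95% exact intervals. The gene test and the peak calling were tested on simulated data, where most planted peaks were found in both libraries only at the largest excess simulated. Alternatives changed regions, windows, thresholds, mapping quality, motif and reference. Python 3.11.15, NumPy 2.4.6, SciPy 1.17.1, pandas 2.3.3 and Matplotlib 3.10.9 were used.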

Additional observations from a re-analysis of the deposited data

Results flagged for a closer look

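Reads lay on a fix patch sequence of chromosome 9, which the levels above do not use. It held 108 reads in library 1 and 59 in library 2, above the 3 reads that a count of 0 allows. No member's window shared a unique 50-base stretch with the chromosome 9 patches (0 of 132 members).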

How the results depend on the processing

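The members' mean level of 0.661 stayed below 1 under every alternative run, from 0.561 against the mean of chromosome 9 to 0.710 in library 1 alone, with 0.708 against windows of the same GC content, and was 0.635 at positions without a near copy, a choice made after seeing the data. The count of members called lower ranged from 50 to 87, apart from 37 without flanks. It was 87 with expected reads scaled by the unique share, beside 16.7% of all genes, 87 in library 2 alone, beside 18.2%, and 72 in library 1 alone, beside 19.3%. The count with a shared peak was 0 at a q of 1e-10, 2 with 5 kb on either side (Olfr920 and Olfr986, beside 39.5% of all genes), and 2 to 17 with 1 library alone (beside 37.9% and 60.7%). The share of motifs outside a peak was 100% for AGATAA, for the AP-1 sequence and at a q of 1e-10, 99.0% against peaks of either library and 99.1 to 99.9% with 1 library alone. The ratio of motif to flank, 1.15, became 1.11 for the reversed letters, 1.21 with flanks at 1000 to 2000 bp and 1.12 per unique position, the last also chosen after seeing the data. Except where the setting itself changes the sites or the number of libraries, the cause was not tested. For the 20 members named by the rule, 0 of 200 recomputed levels moved a called gene to the other side of the mean. This count cannot include named members that were not called, and some of those crossed the mean. On windows at least 90% unique, Olfr877, Olfr876, Olfr849, Olfr891, Olfr930 and Olfr984 moved from above the mean to below it. The reference was then the mean of such windows, 3.82 and 2.35 reads in place of 3.06 and 1.89. Of the others not called, Olfr982 stayed above the mean on those windows and Olfr920 below it. Both crossed the mean elsewhere, Olfr982 at 0.996 with 5 kb on either side and Olfr920 at 1.04 without flanks. No paired analysis was possible because both libraries belong to the same group. At equal depths library 1 had 47264 peaks and library 2 28204, of which 21424 were shared, against 23806 shared at full depth.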

Other observations

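The members' level was lower in library 2 than in library 1, by a ratio of 0.863 (95% exact interval 0.839 to 0.888) on windows at least 90% unique. Among the 12 chromosomes with at least 20 Olfr genes this ratio ran from 0.696 for the 66 genes of chromosome 19 to 1.15 for the 27 genes of chromosome 1, with chromosomes 9 and 16 (0.865, 0.819 to 0.913) next to the lowest and not told apart from each other. For the 294 Olfr genes of chromosome 2 it was 1.05, and for the 244 of chromosome 7 it was 1.06. Against windows of the same GC content the ratio was 0.896 for chromosome 9, 0.894 for chromosome 16 and 0.716 for chromosome 19.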
